A study of Mus musculus with 36 samples.

Results

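Pomc, Cartpt, Mc3r and Mc4r, the anorexigenic peptide genes of the arcuate nucleus and the brain receptors of the melanocortin system, were followed through 36 bulk RNA-seq libraries of mouse hypothalamus. They are 4 of the 24265 genes of the deposited count table and were picked by gene symbol. Pomc encodes pro-opiomelanocortin, a precursor cut into alpha-melanocyte-stimulating hormone in the hypothalamus and into corticotropin in the anterior pituitary. Cartpt encodes the cocaine- and amphetamine-regulated transcript peptides, which many Pomc neurons of the arcuate nucleus also make. The melanocortin peptides act on Mc4r, the receptor whose loss causes obesity in mice and people, and on Mc3r, which is also made by Agrp neurons of the arcuate nucleus. Agrp encodes agouti-related peptide, the antagonist at both receptors, and Agrp neurons also make neuropeptide Y, encoded by Npy.

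The mice were wild type and of 3 inbred strains, namely C57BL/6J, the source of the mouse reference genome, NZO/HlLtJ, a polygenic model of obesity and diabetes, and CAST/EiJ, a wild-derived strain. Each strain received a control diet labelled with 10% fat plus fiber or a high-fat, high-sugar diet (HFHS below) labelled with 44% fat plus fiber, begun at 6 weeks of age, with hypothalamus taken at 15 weeks. Strain, diet and sex make 12 groups with n = 3 libraries each. A diet comparison within a strain therefore sets n = 6 against n = 6, with 3 females and 3 males on each side. The labels do not say that the libraries of a group come from separate animals, so the p-values measure the spread between these samples. Library totals ran from 23885206 to 47250454 counts, with a median of 34586603.

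The files place Pomc (ENSMUSG00000020660) on chromosome 12 at 3954951 to 3960618, plus strand, in GRCm38. Cartpt (ENSMUSG00000021647) lies on chromosome 13 at 99898484 to 99900683, minus strand. Sequence upstream of these genes is shown because their levels moved together from library to library, as described further on. It was taken from RefSeq on GRCm38.p6 and is written from 5′ to 3′ on the strand of the gene, with capitals marking the motif found. For Pomc the 250 bases before the RefSeq start are given, chr12:3954695-3954944, plus strand, with 60% G or C. For Cartpt the 250 bases before the RefSeq start, chr13:99900684-99900933, minus strand, are all annotated as 5′ untranslated exon of a longer transcript in GENCODE M21. So for Cartpt the motif is given with 10 bases on each side, at chr13:99900778-99900805.
Pomc: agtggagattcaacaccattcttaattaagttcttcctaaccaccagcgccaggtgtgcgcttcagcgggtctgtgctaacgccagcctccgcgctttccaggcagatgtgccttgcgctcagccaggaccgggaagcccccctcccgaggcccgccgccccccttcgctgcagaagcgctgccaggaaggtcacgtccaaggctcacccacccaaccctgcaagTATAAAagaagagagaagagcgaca
Cartpt: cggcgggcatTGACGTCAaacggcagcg
The core of the TATA box, TATAAA, was found in the Pomc window with its first base at -25 from the RefSeq start, and 12.4% of the 32851 mouse promoter windows of this length hold it. The cAMP response element TGACGTCA was found in the Cartpt window at -112 from the RefSeq start, which lies within the gene as M21 annotates it, and 1.55% of the windows hold it. The palindromic E-box CACGTG, present in 6.02% of windows, and the STAT site TTCNNNGAA, present in 7.02%, were in neither. Each motif was searched on both strands, no matches overlapped, and a match describes the letters only.

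Mc3r (ENSMUSG00000038537) lies on chromosome 2 of GRCm38 at 172248492 to 172251114, plus strand, and Mc4r (ENSMUSG00000047259) on chromosome 18 at 66857715 to 66860472, minus strand. In the GENCODE M21 annotation the exons of Pomc cover 1318 bases in 5 blocks and those of Cartpt 1277 bases in 3 blocks, while Mc3r and Mc4r each have 1 block, of 2623 and 2803 bases. None of the 4 genes overlapped another gene there, so reads of a neighbouring or antisense gene do not enter their counts by annotation.

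Levels are given in CPM, a gene's count per 1000000 counts of its library, corrected for library composition. Pomc averaged 46.0 ± 11.9 CPM and Cartpt 50.6 ± 13.0 CPM over all libraries (SD, n = 36). The receptors were far scarcer, at 7.44 ± 1.19 CPM for Mc3r and 3.62 ± 0.697 CPM for Mc4r. In raw counts the libraries held 1101 to 2973 for Pomc, 1026 to 3885 for Cartpt, 152 to 382 for Mc3r and 57 to 253 for Mc4r, so that Mc4r carried the widest counting error.
Per kilobase of exon, the scale on which different genes can be compared, Cartpt stood at 39.6 ± 10.2 CPM per kb and Pomc at 34.9 ± 9.06, which overlap within their spread. Mc3r stood at 2.84 ± 0.453 CPM per kb, and its lowest library, at 2.14, was above the highest library of Mc4r, at 1.87. On the same scale Npy averaged 35.6 ± 21.2 and Agrp 4.40 ± 2.99 CPM per kb. The annotated exons of Agrp overlap those of other genes and counting by strand is not stated, so its level is uncertain.

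The variation of each gene was split over the design on the log2 CPM scale. Strain accounted for 60.3% of the variation of Cartpt, 33.3% of that of Mc3r, 12.6% of that of Mc4r and 2.34% of that of Pomc. Diet alone accounted for at most 1.86%, the share for Mc4r. The interaction of strain and diet took 21.4% for Mc4r, 14.8% for Pomc, 6.64% for Cartpt and 0.403% for Mc3r. The other interactions took 15.3%, 15.9%, 8.06% and 13.2% in the same order. The shares themselves were not tested, and tests of the diet response between strains are given below. For Pomc 65.6% lay between libraries of the same group, against 23.4% for Cartpt, 46.9% for Mc3r and 48.9% for Mc4r. The SD within groups was 0.333 for Pomc, 0.215 for Cartpt, 0.187 for Mc3r and 0.244 for Mc4r on that scale. Leaving out CAST/EiJ control female 1, described below, gave 0.247 for Pomc, 0.165 for Cartpt, 0.174 for Mc3r and 0.247 for Mc4r. The within-group share was then 47.7% for Pomc, 14% for Cartpt, 40% for Mc3r and 48.1% for Mc4r. With all libraries, strain thus took a larger share for Cartpt than for the other members.

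**Figure D1:**
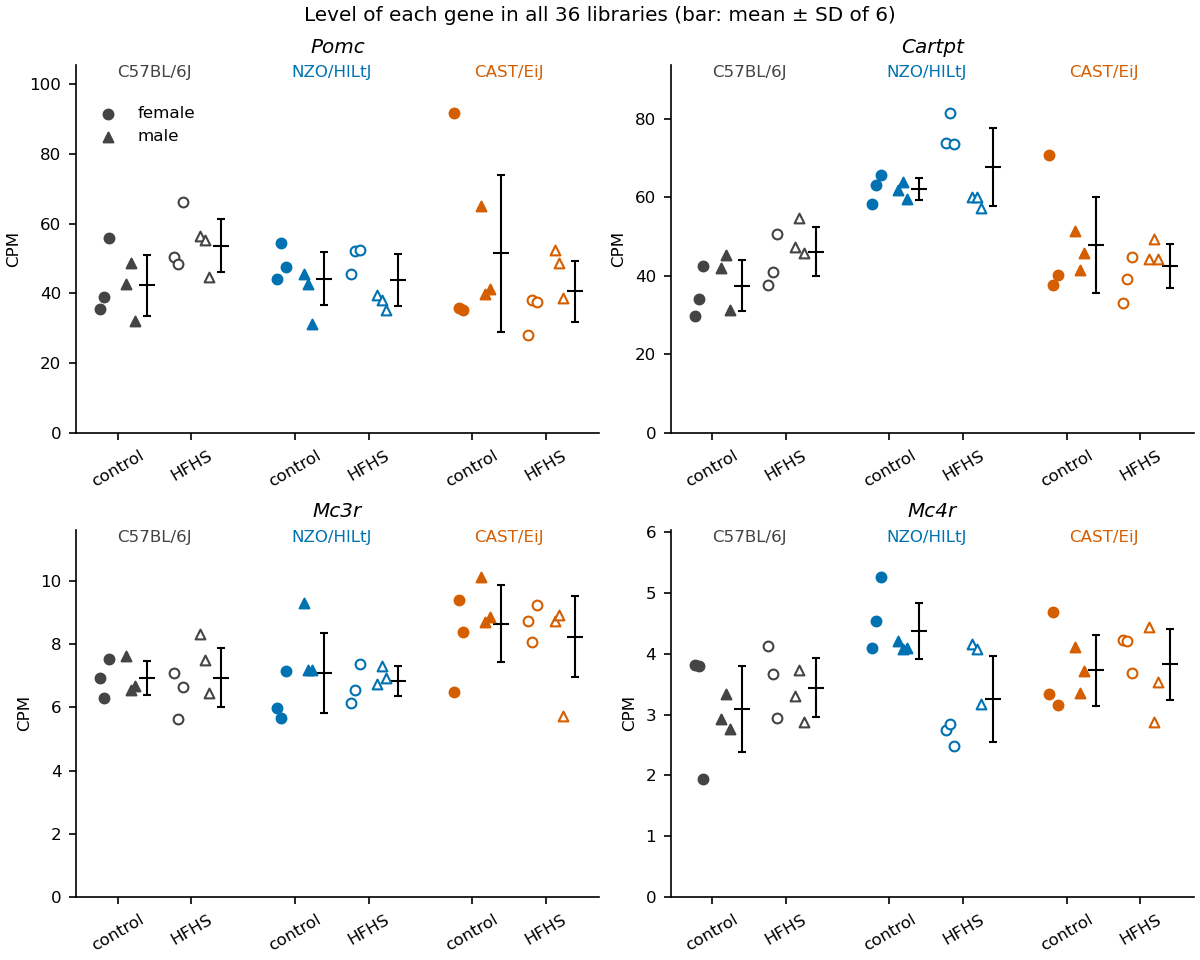
Level of Pomc, Cartpt, Mc3r and Mc4r in CPM (linear axes from 0) in each of the 36 libraries, by strain and diet. Circles are females, triangles males, filled symbols control and open symbols HFHS, and the bars give the mean ± SD of 6 libraries. Cartpt is higher in all NZO/HlLtJ libraries than in all C57BL/6J libraries, and the highest Pomc point, at 91.6 CPM, is a CAST/EiJ control female.

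Markers of hypothalamic nuclei were present in every library. Summed CPM ran from 26.6 to 144 for 5 arcuate genes, from 233 to 1140 for Hcrt and Pmch of the lateral hypothalamus, from 139 to 633 for 5 paraventricular and supraoptic genes and from 20.3 to 54.2 for Nr5a1 and Fezf1 of the ventromedial nucleus. Genes of tissue next to the hypothalamus were also found, at 7.76 to 66.7 CPM for 3 choroid plexus genes and 19.4 to 110 CPM for 4 thalamus and cortex genes. These sums were uneven over their genes. In C57BL/6J on HFHS Kl averaged 15.6 CPM, beside 0.701 for Ttr and 0.714 for Folr1. Ttr averaged 15.4 CPM in NZO/HlLtJ on HFHS. In C57BL/6J on HFHS Tcf7l2 averaged 17.5 and Prkcd 12 CPM, beside 0.945 for Slc17a7 and 1.49 for Neurod6.

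Pomc is also among the most abundant transcripts of the anterior pituitary, which hangs below the hypothalamus, so pituitary hormone genes were examined before any comparison. Prl (prolactin) was at 0 in 12 of the 36 libraries, Gh (growth hormone) in 13, and Cga (the shared subunit of the glycoprotein hormones) in 1. The summed CPM of these 3 genes ran from 0 to 15.5 in C57BL/6J, from 5.79 to 17.6 in NZO/HlLtJ and from 14.4 to 2370 in CAST/EiJ. Over the 36 libraries the median was 0.122 CPM for Prl, 0.0727 for Gh and 12.7 for Cga. In most libraries the sum, and the term built on it below, was thus mainly Cga. CAST/EiJ control female 1 stood apart from all others, with Prl at 1330, Gh at 802 and Cga at 242 CPM. CAST/EiJ control male 1 came next, with a sum of 230 CPM, while the other 4 CAST/EiJ control libraries held 16.4 to 51.2 CPM.

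The same female library had the highest Pomc of all 36, at 91.6 CPM, and CAST/EiJ control male 1 was the next highest of its strain at 65.1 CPM. Tbx19, a transcription factor of the Pomc-making cells of the pituitary, was at 4.90 CPM in that female and 3.15 in that male, the highest values of the series. The 7 further pituitary genes found in the table summed to 110 CPM in the female and 68.6 in the male, against 27.9 to 33.6 in the other CAST/EiJ controls.
Some hypothalamic genes were high in the female too, and Agrp also in the male. Agrp was at 16.8 and 11.7 CPM in these libraries, its highest values of the series, and Npy was at 80.1 CPM in the female. A list of arcuate neuron genes, with Agrp and Npy among them, summed to 144 CPM in the female against 42.1 to 65.6 in the other CAST/EiJ controls. The 3 tanycyte genes summed to 91.0 against 32.8 to 51.8 CPM. Both ranges of the other controls include control male 1. Nr5a1 and Fezf1 of the ventromedial nucleus ran from 6.16 to 24.6 and from 14.1 to 29.7 CPM over the CAST/EiJ controls, with the lowest of each in a female. The part of pituitary RNA in the Pomc level of these libraries was not tested. Values that rest on them are given below with and without them.

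**Figure D2:**
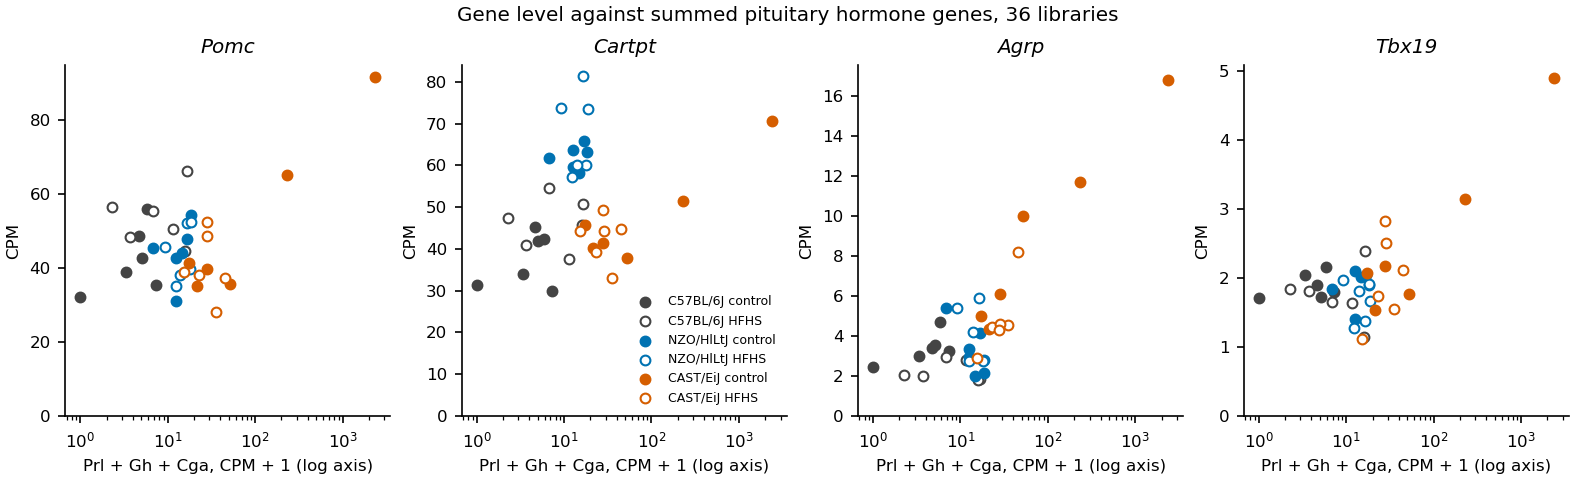
Level of Pomc, Cartpt, Agrp and Tbx19 (CPM, linear axes) against the summed CPM of Prl, Gh and Cga plus 1 (log axis), 1 point per library, coloured by strain and filled for control. The points at the far right are CAST/EiJ control female 1, with a sum of 2370 CPM, and control male 1, with 230 CPM.

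Within CAST/EiJ, Pomc followed the log2 sum of the pituitary genes with Pearson's r = 0.809 (n = 12, permutation p = 0.00667, adjusted p = 0.08 over 12 relations), while Spearman's rho was 0.259. Leaving out the 2 libraries farthest from the median turned r to -0.235 (n = 10), so the relation rested on those libraries. For Cartpt the corresponding values were 0.762 (permutation p = 0.0161, adjusted p = 0.0967), 0.245 and -0.345. In C57BL/6J the r of Pomc was 0.492, and -0.138 without the 2 farthest libraries, and in NZO/HlLtJ it was 0.264, and 0.763 without them. None of the 12 relations passed an adjusted p of 0.05.

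The study asked how strain and diet act together, so each strain was first compared between diets. No member passed the test for diet in any strain. In edgeR's quasi-likelihood test, 0 of 4 members were called at an adjusted p under 0.05 in C57BL/6J (0% of all tested genes were called), 0 of 4 in NZO/HlLtJ (0.145%), 0 of 4 in CAST/EiJ (0.12%) and 0 of 4 for diet averaged over the strains (0.0299%). At an unadjusted p under 0.05 the counts were 1, 1, 0 and 0 members, beside 687, 2081, 3460 and 1235 of all 20053 tested genes. DESeq2 and limma also called 0 members in each. The values below are therefore differences that did not pass. In bulk tissue, fewer cells of a type and less RNA per cell cannot be told apart.

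In C57BL/6J, Pomc in control females was at 35.5, 38.9 and 55.8 CPM and in control males at 42.7, 48.7 and 32.1 CPM. On HFHS it was at 50.5, 48.3 and 66.3 CPM in females and at 56.4, 55.4 and 44.7 CPM in males. The HFHS libraries lay higher as a group and the ranges overlapped, with means of 42.3 ± 8.76 and 53.6 ± 7.6 CPM (SD, n = 6 each). The log2 difference was 0.35 ± 0.18 (SE, 95% interval -0.02 to 0.71, edgeR adjusted p = 1). Prl, Gh and Cga summed to 0 to 6.33 CPM in these controls and to 1.28 to 15.5 CPM on HFHS. A fit with their log2 sum as a term was among the alternatives, but how much of the difference is theirs was not tested.
Cartpt showed a like pattern in C57BL/6J, with 29.8, 34.1 and 42.4 CPM in control females, 42.0, 45.3 and 31.4 in control males, 37.6, 41.0 and 50.7 in HFHS females and 47.3, 54.7 and 45.8 in HFHS males. Its log2 difference was 0.30 ± 0.12 (SE, n = 6 each, unadjusted p = 0.0145 in edgeR's fit, adjusted p = 1), again with overlapping ranges. Mc3r averaged 6.93 ± 0.546 CPM on control and 6.94 ± 0.926 on HFHS. Mc4r averaged 3.09 ± 0.708 and 3.44 ± 0.486 CPM (SD, n = 6 each), with a log2 difference of 0.15 ± 0.14.

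In NZO/HlLtJ the member farthest apart between diets was Mc4r. Control females had 4.10, 4.53 and 5.25 CPM and control males 4.21, 4.07 and 4.09 CPM. HFHS females had 2.75, 2.85 and 2.49 CPM and HFHS males 4.16, 4.08 and 3.18 CPM. All 3 HFHS females lay below every control library, whereas 2 of the 3 HFHS males lay within the control range. The means were 4.38 ± 0.462 and 3.25 ± 0.708 CPM (SD, n = 6 each), a log2 difference of -0.45 ± 0.14 (95% interval -0.73 to -0.16). It had an unadjusted p of 0.00301 and an adjusted p of 0.208 in edgeR, and between 0.0589 and 0.436 over the alternatives. The difference between the female and male diet responses of Mc4r was -0.67 ± 0.28 on the log2 scale (adjusted p = 0.862 in edgeR), so the sexes were not shown to differ.
Pomc in NZO/HlLtJ averaged 44.2 ± 7.67 CPM on control and 43.8 ± 7.33 on HFHS, a log2 difference of -0.02. Cartpt averaged 62.1 ± 2.81 and 67.7 ± 9.86 CPM, a log2 difference of 0.11. The HFHS females, at 73.8, 81.4 and 73.5 CPM, lay above all other NZO/HlLtJ libraries, whose values ran from 57.2 to 65.8 CPM. Mc3r averaged 7.08 ± 1.27 and 6.83 ± 0.472 CPM (SD, n = 6 each), a log2 difference of -0.04.

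In CAST/EiJ, control Pomc was at 91.6, 35.7 and 35.2 CPM in females and 65.1, 39.8 and 41.4 CPM in males. HFHS values were 28.1, 38.1 and 37.4 CPM in females and 52.4, 48.7 and 38.8 CPM in males. Apart from the 2 control libraries with the most Prl and Gh, the control values lay inside the HFHS range. The log2 difference was -0.35 ± 0.18 with all libraries (edgeR adjusted p = 0.301), -0.04 without control female 1 and 0.08 without control female 1 and male 1. For Cartpt it was -0.18 with all libraries (adjusted p = 0.431), 0.00 without control female 1 and 0.04 without both.
Mc3r averaged 8.65 ± 1.23 CPM on control and 8.23 ± 1.29 on HFHS, a log2 difference of -0.07. Mc4r averaged 3.73 ± 0.579 and 3.83 ± 0.580 CPM (SD, n = 6 each), a log2 difference of 0.04.

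Differences between strains were next tested on each diet, and here Cartpt and the receptors passed. On the control diet 2 of 4 members passed for NZO/HlLtJ against C57BL/6J, where 17.7% of all tested genes did, 2 of 4 for CAST/EiJ against C57BL/6J (42.6%), and 2 of 4 for NZO/HlLtJ against CAST/EiJ (42.9%). On HFHS the counts were 1 of 4 (15.8%), 0 of 4 (42.5%) and 2 of 4 (43.1%). Where 0 passed, 2 members, beside 9929 of all 20053 tested genes, had an unadjusted p under 0.05 in edgeR, and DESeq2 and limma called 0. In the comparisons with CAST/EiJ these counts are close to what the shares of all genes give for 4 genes, and nothing particular to the members is read from them. The comparisons share libraries and are not independent of each other.

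Cartpt was higher in NZO/HlLtJ than in C57BL/6J on both diets. NZO/HlLtJ controls had 58.2, 63.2 and 65.8 CPM in females and 61.8, 63.8 and 59.6 in males, above every C57BL/6J control, the highest of which was 45.3 CPM. Over both diets NZO/HlLtJ ran from 57.2 to 81.4 CPM and C57BL/6J from 29.8 to 54.7 CPM (n = 12 each), with no overlap. The difference was 1.66-fold on control, a log2 difference of 0.73 ± 0.12 (adjusted p = 1.77e-05 in edgeR), and 0.54 ± 0.11 on HFHS (adjusted p = 0.000875). It passed under every alternative tried for both diets, including each of the 36 libraries left out in turn.
Against CAST/EiJ, Cartpt was also higher in NZO/HlLtJ, by 0.38 ± 0.11 on control (adjusted p = 0.00859 in edgeR) and by 0.67 ± 0.11 on HFHS (adjusted p = 2.03e-05). On control the value moved between 0.31 and 0.56 as single libraries were left out, the highest without CAST/EiJ control female 1, whose Cartpt was 70.7 CPM. The order of strains on HFHS was NZO/HlLtJ at 67.7 ± 9.86, C57BL/6J at 46.2 ± 6.24 and CAST/EiJ at 42.5 ± 5.63 CPM, of which C57BL/6J and CAST/EiJ did not differ beyond their spread. CAST/EiJ control Cartpt was above C57BL/6J by 0.36 ± 0.12 (adjusted p = 0.0136). Without CAST/EiJ control female 1 it was 0.18 (adjusted p = 0.131), and without C57BL/6J control male 3 it was 0.29 (adjusted p = 0.0544), so that call rested on single libraries. With the log2 sum of Prl, Gh and Cga as a term in the fit it was -0.14. That sum did not overlap between CAST/EiJ and C57BL/6J controls, so in such a fit the term and the strain cannot be told apart.

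Pomc passed in none of the 6 strain comparisons. On control the mean levels were 42.3 ± 8.76 in C57BL/6J, 44.2 ± 7.67 in NZO/HlLtJ and 51.4 ± 22.6 in CAST/EiJ (CPM, SD, n = 6 each), the last being 43.4 ± 12.4 (n = 5) without control female 1. The log2 difference of CAST/EiJ from C57BL/6J was 0.28 on control (edgeR adjusted p = 0.207) and -0.03 without that library. With the log2 sum of Prl, Gh and Cga as a term in the edgeR fit it was -0.57 (adjusted p = 0.0212). As for Cartpt above, the term and the strain cannot be told apart in that fit. On HFHS it was -0.42 ± 0.18 (adjusted p = 0.0582), with CAST/EiJ at 40.6 ± 8.72 against 53.6 ± 7.6 CPM. Prl, Gh and Cga summed to 14.4 to 44.1 CPM in these CAST/EiJ libraries and to 1.28 to 15.5 CPM in the C57BL/6J ones. A fit with their log2 sum as a term was run, and its counts of members called are given at the end. How much of the difference is theirs was not tested. The adjusted p was 0.00796 when CAST/EiJ control female 1 was left out of the shared fit, with the log2 difference still at -0.42.

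Mc3r was higher in CAST/EiJ than in either other strain on control. CAST/EiJ controls had 6.47, 9.39 and 8.37 CPM in females and 10.1, 8.69 and 8.85 in males, and C57BL/6J controls 6.92, 6.28 and 7.53 in females and 7.63, 6.55 and 6.67 in males. Only CAST/EiJ control female 1, the library rich in pituitary transcripts, lay within the C57BL/6J range. The log2 difference was 0.32 ± 0.11 (adjusted p = 0.0169 in edgeR) and 0.38 (adjusted p = 0.00424) without it. The adjusted p was 0.0572 without C57BL/6J control female 2 and 0.0719 without CAST/EiJ control female 2.
NZO/HlLtJ was below CAST/EiJ in Mc3r by a log2 difference of -0.30 ± 0.11 on control (adjusted p = 0.0248) and -0.27 on HFHS (adjusted p = 0.0408). These calls were lost in 7 and 17 of the 36 fits that left out 1 library. For CAST/EiJ against C57BL/6J on HFHS the difference was 0.25 (adjusted p = 0.0587), and 13 of the 36 such fits called it. CAST/EiJ had the highest mean of Mc3r on both diets, with tests close to the threshold.

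Mc4r was higher in NZO/HlLtJ than in C57BL/6J on the control diet. The 6 NZO/HlLtJ controls lay between 4.07 and 5.25 CPM and the 6 C57BL/6J controls between 1.95 and 3.81 CPM, with no overlap. The difference was 1.41-fold, a log2 difference of 0.50 ± 0.14 (adjusted p = 0.0112 in edgeR), and it passed in all alternatives. On HFHS it was -0.10 (adjusted p = 0.724), with means of 3.25 ± 0.708 and 3.44 ± 0.486 CPM (SD, n = 6 each).

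**Figure D3:**
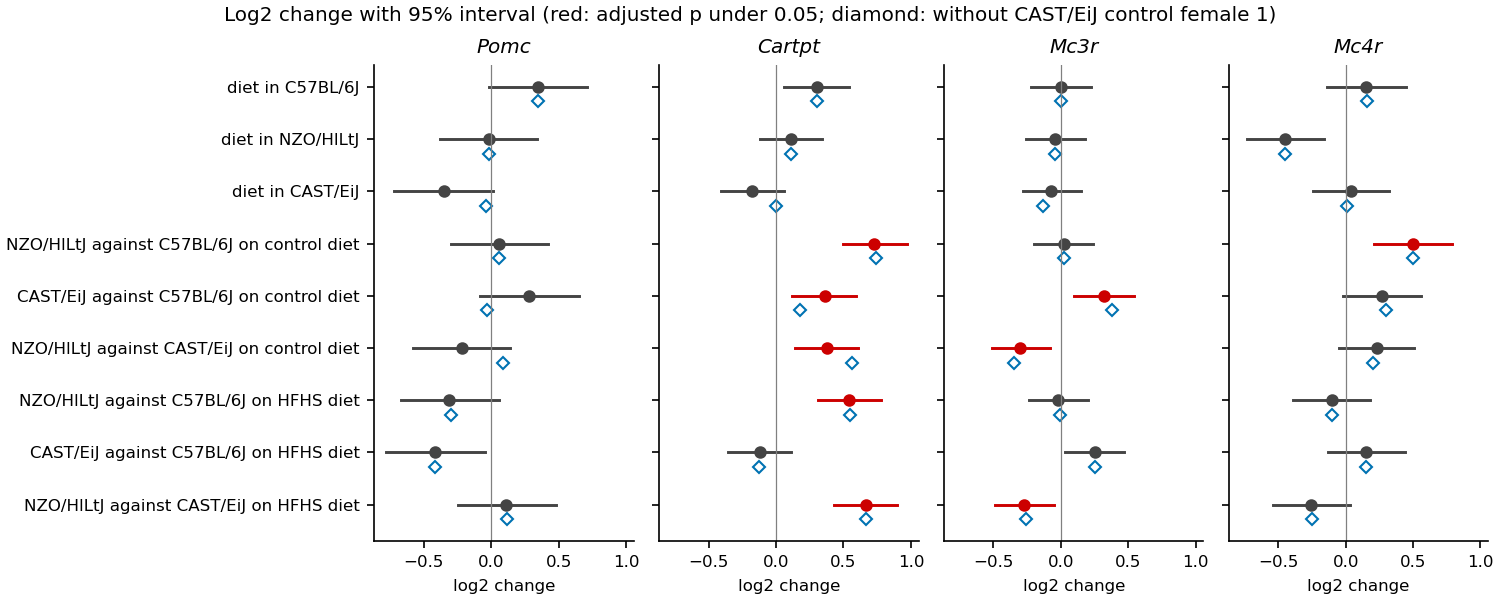
Log2 change of Pomc, Cartpt, Mc3r and Mc4r for diet within each strain (HFHS less control) and between strains on each diet, with 95% intervals as lines. Red marks an adjusted p under 0.05 in edgeR and the open diamonds give the value without CAST/EiJ control female 1. No diet row is red, and the diamonds for Pomc in CAST/EiJ on the control diet and for diet lie near 0.

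The question of the study is whether diet acts differently by strain, which the difference of diet responses tests directly. In edgeR, 0 of 4 members passed for NZO/HlLtJ against C57BL/6J (0% of all genes), 0 of 4 for CAST/EiJ against C57BL/6J (0%) and 0 of 4 for NZO/HlLtJ against CAST/EiJ (1.8%). At an unadjusted p under 0.05 the counts were 1, 2 and 1, beside 1336, 2041 and 3864 of all 20053 tested genes. DESeq2 and limma called 0 members in each. Mc4r gave -0.60 ± 0.20 for NZO/HlLtJ against C57BL/6J (SE, log2, unadjusted p = 0.00498 in edgeR's fit, adjusted p = 0.567). Against CAST/EiJ it gave -0.49 ± 0.20 (edgeR adjusted p = 0.173, and 0.0471 without CAST/EiJ control female 2).
For CAST/EiJ against C57BL/6J, Pomc gave -0.70 ± 0.25 (adjusted p = 0.366 in edgeR) and Cartpt -0.48 ± 0.16 (adjusted p = 0.362). Without CAST/EiJ control female 1 these were -0.39 and -0.30, and without control male 1 as well both were -0.26. The Cartpt value had an adjusted p of 0.0473 without CAST/EiJ control female 2.

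Sex was compared within each strain averaged over the diets. In edgeR, 0 of 4 members passed in C57BL/6J (0.194% of all genes), in NZO/HlLtJ (0.0698%) and in CAST/EiJ (0.185%). In each, 0 members had an unadjusted p under 0.05, beside 1141, 1048 and 3800 of all 20053 tested genes. DESeq2 and limma called 0 members in each. The member nearest to a sex difference was Pomc in NZO/HlLtJ. Females there had 44.1 to 54.4 CPM (49.4 ± 4.14, SD, n = 6) and males 31.1 to 45.5 CPM (38.7 ± 5.16, n = 6), with 1 male above the lowest female. The log2 difference, female less male, was 0.35 ± 0.18 (unadjusted p = 0.0546 in edgeR's fit, adjusted p = 0.938).
For the diet response by sex, 0 of 4 members passed in C57BL/6J (0%), in NZO/HlLtJ (0.00499%) and in CAST/EiJ (0%). The counts at an unadjusted p under 0.05 were 0, 1 and 0, beside 586, 1043 and 1724 of all 20053 tested genes. The 1 was Mc4r in NZO/HlLtJ described above, and DESeq2 and limma called 0 members.

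Pomc and Cartpt moved together from library to library within groups. Each library's deviation from the mean of its group of 3 was taken on the log2 CPM scale, which removes the differences between group means. Over the 36 libraries the deviations of Pomc and Cartpt had a Pearson's r of 0.887 and a Spearman's rho of 0.817. With values permuted within groups, the permutation p was 4e-05 for r (adjusted p = 0.00024 over 6 pairs) and 9e-05 for rho (adjusted p = 0.00054). In 32 of 36 libraries both genes lay on the same side of their group means. Leaving out the 2 libraries farthest from the median of Pomc gave r = 0.824 (n = 34). Within strains r was 0.926 in C57BL/6J, 0.535 in NZO/HlLtJ and 0.927 in CAST/EiJ, or 0.848 there without control female 1.
The other 5 pairs of members had r between -0.301 and 0.0708, with permutation adjusted p of at least 0.803. The r of Pomc and Mc3r, 0.0531 with all libraries, was 0.313 without CAST/EiJ control female 1 (n = 35) and 0.357 without the 2 libraries farthest from the median of Pomc (n = 34). Within strains the r of Cartpt and Mc4r was 0.723 in NZO/HlLtJ, -0.433 in C57BL/6J and -0.345 in CAST/EiJ (n = 12 each). These within-strain values are given as a description. Pomc and Cartpt were the pair of members whose relation passed. Before group means were removed, the r of Pomc and Cartpt over the 36 libraries was 0.45. Libraries share their dissection and RNA, and how much of a given nucleus each one holds was not measured.

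**Figure D4:**
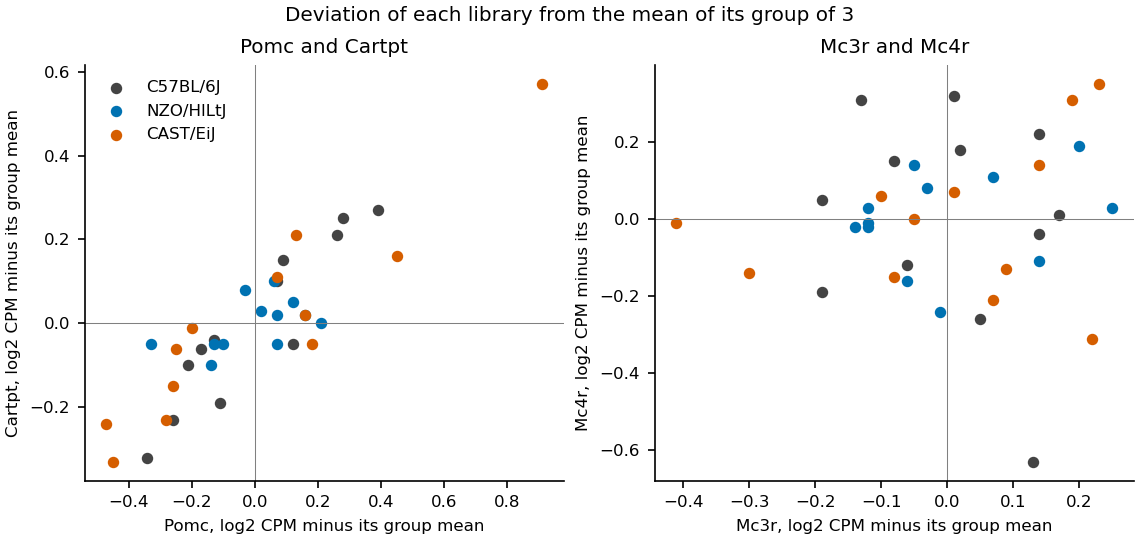
Deviation of each library from the mean of its group of 3 in log2 CPM, Pomc against Cartpt on the left and Mc3r against Mc4r on the right, coloured by strain. The left points follow a line (r = 0.887, n = 36), with CAST/EiJ control female 1 at the upper right, and the right points do not (r = 0.0708).

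Among all genes with a mean of at least 1 CPM, Cartpt was the gene most like Pomc in these deviations, followed by Col23a1 at r = 0.868, a tanycyte marker here, and Gpr50 at 0.848, an orphan receptor of tanycytes. For Cartpt, Pomc came first, followed by Apoe at 0.827, the lipid carrier of glial cells, and Nkain4 at 0.823. The genes nearest to Mc3r were Hdc at 0.701, which makes histamine, Kif7 at 0.691 and Ptpro at 0.690. Those nearest to Mc4r were Zfp3 at 0.707, Pabpc1l2b-ps at 0.672 and Mybbp1a at 0.667. With CAST/EiJ control female 1 left out (n = 35) the genes nearest to Cartpt were Pomc at 0.837, Tst at 0.774 and Il11ra1 at 0.768, so the places of Apoe and Nkain4 rested on that library. Pomc kept Cartpt at 0.837, Col23a1 at 0.802 and Gpr50 at 0.77. Mc3r then had Hdc at 0.655, Rasgef1c at 0.647 and Ptpro at 0.647, and Mc4r had Zfp3 at 0.749, Mybbp1a at 0.683 and Dhx32 at 0.681. With and without that library the highest r of each receptor was below that of each peptide gene, and the receptors also had the lower counts.
On log2 CPM itself, with strain and diet left in, the nearest genes were others. Pomc had Fndc3c1 at 0.705 and Gpr50 at 0.702, Cartpt had Cst3 at 0.848 and Pih1d1 at 0.843, Mc3r had Rasa4 at 0.726, and Mc4r had Zfp3 at 0.668. With CAST/EiJ control female 1 left out, Pomc had Itpka at 0.631, Tst at 0.616 and Tbx3 at 0.611, and Cartpt had Pih1d1 at 0.86 and Antxr1 at 0.858. Mc3r then had Ano10 at 0.764 and Rasa4 at 0.752, and Mc4r had Zfp3 at 0.686. All are Pearson's r over 36 or 35 libraries and are given as a description.

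The surrounding pathway was read from a list of 47 genes for antagonists, receptor accessory proteins, peptide processing, transcription factors of Pomc neurons, upstream receptors, downstream neurons and orexigenic peptides, of which 43 could be tested. For diet, 0 of 43 passed in edgeR in each strain. At an unadjusted p under 0.05 there were 5 in C57BL/6J, 5 in NZO/HlLtJ and 9 in CAST/EiJ, beside 687, 2081 and 3460 of all 20053 tested genes. DESeq2 called 0, 0 and 2, the last being Npy and Bdnf, and limma called 0 in each. The log2 difference of Agrp between diets was -0.58 ± 0.29 in C57BL/6J (edgeR adjusted p = 1), 0.24 in NZO/HlLtJ (adjusted p = 0.854) and -0.89 ± 0.27 in CAST/EiJ (adjusted p = 0.113, and -0.40 without control female 1 and male 1). Npy ran from 15.9 to 24.6 CPM in C57BL/6J controls and from 8.47 to 15.8 CPM on HFHS, with no overlap, and its log2 difference of -0.78 ± 0.23 did not pass (edgeR adjusted p = 1). It was 0.51 in NZO/HlLtJ (adjusted p = 0.406) and -0.89 ± 0.22 in CAST/EiJ (adjusted p = 0.0815), the latter being -0.56 without control female 1 and -0.48 without both.
Between strains on control, 5 of 43 genes were higher and 2 lower in NZO/HlLtJ than in C57BL/6J, or 16.3%, near the 17.7% of all genes. In CAST/EiJ against C57BL/6J 10 were higher and 7 lower, or 39.5% against 42.6%, and in NZO/HlLtJ against CAST/EiJ 9 were higher and 8 lower, or 39.5% against 42.9%. The median log2 differences were 0.04, 0.08 and 0.00, against 0.00 over all tested genes in each. On HFHS the shares were 20.9%, 37.2% and 34.9%, against 15.8%, 42.5% and 43.1% of all genes. Without CAST/EiJ control female 1, NZO/HlLtJ against C57BL/6J on control gave 7 higher and 5 lower. With the pituitary term CAST/EiJ against C57BL/6J on control gave 2 higher and 4 lower. The shares above belong to the main fit, and those of all genes in these altered fits are not given. Nothing particular to the pathway genes is read from the altered counts.

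Among receptor accessory genes, Mrap2, a partner protein that modulates Mc4r, was higher in NZO/HlLtJ than in C57BL/6J on control by 0.32 ± 0.08 (adjusted p = 0.00297 in edgeR). It was the 1 of 6 tested in its list that passed there. Mrap2 was at 38.5 ± 2.47 CPM in NZO/HlLtJ controls, 30.8 ± 4.13 in C57BL/6J and 31.7 ± 3.27 in CAST/EiJ (SD, n = 6 each).
Among 7 peptide processing genes, Scg5, the chaperone of the prohormone convertase encoded by Pcsk2, was lower in C57BL/6J than in both other strains. Controls had 157 ± 11.3 CPM in C57BL/6J, 319 ± 11 in NZO/HlLtJ and 345 ± 52.0 in CAST/EiJ. The log2 differences were 1.02 ± 0.05 (adjusted p = 1.15e-15) and 1.13 ± 0.05 (adjusted p = 2.42e-17), the groups did not overlap, and on HFHS they were 1.00 and 1.00. Prcp, a carboxypeptidase that inactivates alpha-melanocyte-stimulating hormone, was lower in CAST/EiJ than in C57BL/6J by -0.39 (adjusted p = 0.000114), at 7.80 ± 0.858 against 10.2 ± 0.620 CPM.

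Among 8 tested transcription factors, Stat3, which carries the leptin signal to Pomc, was higher in NZO/HlLtJ than in C57BL/6J on control by 0.39 ± 0.05 (adjusted p = 6.47e-08). Its levels were 126 ± 9.88 and 96.1 ± 5.81 CPM, with no overlap. Foxo1, which restrains Pomc transcription, was lower there by -0.27 (adjusted p = 0.0034). In CAST/EiJ controls Foxo1 was called higher than in C57BL/6J, at 50.5 against 44.7 CPM, a call lost in 8 of 45 alternatives. Nhlh2, a helix-loop-helix factor of Pomc neurons, was lower in CAST/EiJ than in C57BL/6J by -0.42 (adjusted p = 0.00244), as was Tbx3, a T-box factor of the same neurons, by -0.33 (adjusted p = 0.0186).
Among 11 upstream genes, Socs3, the feedback inhibitor of leptin signalling that Stat3 induces, was higher in NZO/HlLtJ than in C57BL/6J on control by 0.95 ± 0.16 (edgeR adjusted p = 4.18e-05), at 6.90 ± 1.63 against 3.58 ± 0.807 CPM. Npy2r, an autoreceptor of Npy neurons, was lower by -0.36 (adjusted p = 0.000798). It was also called in CAST/EiJ against C57BL/6J, with control means of 20.7 CPM in CAST/EiJ, 23.8 in NZO/HlLtJ and 30.5 in C57BL/6J. Ghsr, the ghrelin receptor, was higher in CAST/EiJ than in C57BL/6J by 0.63 (adjusted p = 0.00246) and lower in NZO/HlLtJ than in CAST/EiJ by -1.09. Among 6 downstream genes, Crh, corticotropin-releasing hormone, was lower in CAST/EiJ than in C57BL/6J on control by -1.04 (edgeR adjusted p = 0.0015). Its levels were low, at 1.44 ± 0.369 against 2.97 ± 0.601 CPM. On HFHS Crh was not called, at 2.31 ± 0.598 CPM in CAST/EiJ and 1.95 ± 0.854 in C57BL/6J, the opposite order.

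All 5 orexigenic peptide genes, whose peptides promote feeding, were higher in CAST/EiJ than in C57BL/6J on control. In that comparison 42.6% of all tested genes were called in either direction. The log2 differences were 1.4 ± 0.28 for Agrp (adjusted p = 0.000126 in edgeR), 1.18 for Hcrt (orexin), 0.81 for Pmch (melanin-concentrating hormone), 0.80 ± 0.22 for Npy (adjusted p = 0.00384) and 0.57 for Gal (galanin). Without CAST/EiJ control female 1 all 5 passed, with Agrp at 1.12 and Npy at 0.46. Without control male 1 as well 4 of 5 passed, Npy being at 0.38 (adjusted p = 0.119). With the log2 sum of Prl, Gh and Cga as a term in the fit, 0 of 5 passed. As that sum did not overlap between CAST/EiJ and C57BL/6J controls, the term and the strain cannot be told apart in that fit. No conclusion about these genes is drawn from it. On HFHS, where no library had a sum of Prl, Gh and Cga above 44.1 CPM, all 5 passed again, beside 42.5% of all tested genes, with Agrp at 1.08 (adjusted p = 0.00263).

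**Figure D5:**
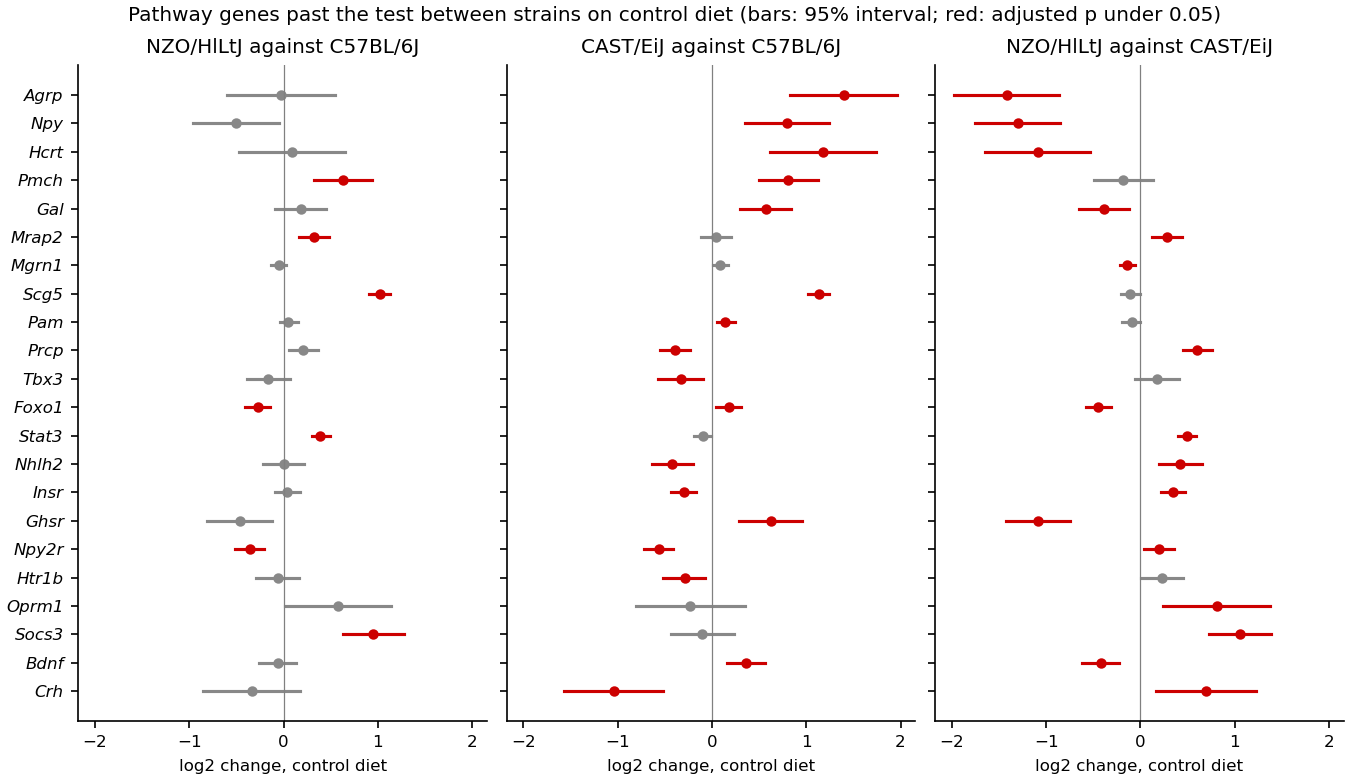
Log2 change between strains on the control diet for the 22 pathway genes that passed in at least 1 of the 3 comparisons, with 95% intervals. Red marks an adjusted p under 0.05 in edgeR. Scg5 is near 1 in both comparisons with C57BL/6J, and the 5 orexigenic peptide genes at the top are all red in CAST/EiJ against C57BL/6J.

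The ratio of Pomc to Agrp was taken in each library, as both genes are made in neighbouring arcuate neurons. In C57BL/6J it ran from 11 to 14.4 on control (12.6 ± 1.19) and from 18.2 to 35.8 on HFHS (24.8 ± 6.46, SD, n = 6 each), with no overlap. In NZO/HlLtJ it was 15 ± 6.79 on control and 12 ± 4.04 on HFHS, and in CAST/EiJ 6.26 ± 1.79 and 9.20 ± 3.38. The CAST/EiJ controls ran from 3.56 to 8.31 with control female 1 and male 1 included, and no mean was taken without them. As the level of Agrp is uncertain, so is that of the ratio. With all libraries, the mean ratio thus differed most between diets in C57BL/6J. The ratio was chosen after the levels were seen and is given without a test.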

How the data were processed

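Hypothalamus libraries of polyadenylated RNA were sequenced as paired reads, per the labels' protocols. The authors deposited expected counts per gene, of which 26.5% were not whole, and a table of variance-stabilized values on a log2 scale, per the file headers and the submitters' processing notes, which name GRCm38 and DESeq2. The aligner, the counting tool, its use of strand and any handling of strain variants were not given in the sources used here. GRCm38 is the C57BL/6J assembly. How strain variants affect the counts was not tested.

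Expected counts were rounded and tested with edgeR 4.0.16 in R 4.3.3 (TMM scaling, filterByExpr, 12 group means, 24 residual degrees of freedom, quasi-likelihood F-test), with Benjamini-Hochberg adjustment over the 20053 of 24265 genes kept and a threshold of 0.05. All 4 members passed the filter. The common biological coefficient of variation was 12.1%. CPM used the TMM library sizes, with a prior count of 2 for log2 values. DESeq2 1.42.0, limma 3.58.1 on the deposited log2 values, other filters and scalings, a pituitary term and each library left out served as alternatives. Outside the members, genes named are drawn from those of fixed lists that passed, without naming every gene and comparison that did. The nearest genes are the 3 of highest r. Tests were checked on simulated data: of 50 genes changed 1.5-fold between NZO/HlLtJ and C57BL/6J controls, 92% were recovered, and 28% of those changed 1.25-fold, among 20053 genes. Every simulated gene was given the common dispersion, and only genes with a mean above 50 counts were changed. These shares therefore do not carry over to genes with a wider spread, and recovery at the spread of each member was not simulated. The members and lists were chosen with earlier results of these data known.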

Additional observations from a re-analysis of the deposited data

Results flagged for a closer look

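Mc3r in CAST/EiJ HFHS male 3 was at 5.72 CPM, the lowest of its 6 libraries, the next being 8.06 CPM, and its distance from the rest passed the 95% critical value of Dixon's ratio. This was 1 of 24 sets of libraries so tested, and chance flags about 1 in 20 of them.

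The diet response of Npy was higher in NZO/HlLtJ than in CAST/EiJ by 1.4 ± 0.31 on the log2 scale (adjusted p = 0.0246 in edgeR's test of the difference). It was 1.07 (adjusted p = 0.0331) without CAST/EiJ control female 1 and 0.99 (adjusted p = 0.0624) without control female 1 and male 1, the libraries richest in Prl and Gh. Against C57BL/6J the diet response of Npy in NZO/HlLtJ was 1.29 ± 0.32 higher and did not pass (unadjusted p = 0.000304 in edgeR's fit, adjusted p = 0.454).

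The diet response of Htr1b, a serotonin receptor gene, was lower in NZO/HlLtJ than in CAST/EiJ by a log2 difference of -0.57 ± 0.15 (adjusted p = 0.0487 in edgeR's test of the difference), a call lost in 35 of 45 alternatives.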

How the results depend on the processing

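Cartpt between NZO/HlLtJ and each other strain and Mc4r between NZO/HlLtJ and C57BL/6J on control kept their calls under all alternatives run. Members called were 1 for NZO/HlLtJ against CAST/EiJ on HFHS with no filter on low counts and with limma. With only the libraries compared in the fit they were 1 for CAST/EiJ against C57BL/6J and 1 for NZO/HlLtJ against CAST/EiJ on control, and 2 for NZO/HlLtJ against C57BL/6J and 1 for CAST/EiJ against C57BL/6J on HFHS. With the pituitary term they were 1 for CAST/EiJ against C57BL/6J on control, and on HFHS 2 for NZO/HlLtJ and 2 for CAST/EiJ against C57BL/6J. Without CAST/EiJ control female 1 and male 1, an alternative chosen after seeing the data, they were 1 on control and 2 on HFHS for CAST/EiJ against C57BL/6J. The shares of all genes called in the same fits are not given beside the counts of members called here and below. Nothing particular to the members is read from those counts.

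Directions turned with the pituitary term for diet in C57BL/6J (Mc3r 0.01) and CAST/EiJ (Pomc 0.01, Cartpt 0.02). They also turned for NZO/HlLtJ against C57BL/6J (Pomc -0.24 on control, Mc3r 0 on HFHS), for CAST/EiJ against C57BL/6J on control (Pomc -0.57, Cartpt -0.14, Npy -0.13, Htr1b 0.01), and for NZO/HlLtJ against CAST/EiJ (Pomc 0.33 on control, -0.05 for its diet response). Without both libraries, Pomc was 0.08 and Cartpt 0.04 for diet in CAST/EiJ, and Pomc was -0.16 against C57BL/6J, 0.22 for NZO/HlLtJ against CAST/EiJ, and -0.1 for their diet responses. For CAST/EiJ against C57BL/6J on control the pituitary term and the strain cannot be told apart. The cause of these turns was not tested.

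With each library left out in turn, diet values ran from -0.05 to 0.04 (Mc3r, C57BL/6J), -0.1 to 0.04 (Pomc, NZO/HlLtJ), -0.08 to 0.03 (Mc3r, NZO/HlLtJ), -0.13 to 0.02 (Mc3r, CAST/EiJ) and -0.04 to 0.15 (Mc4r, CAST/EiJ). Strain values on control ran from -0.02 to 0.17 (Pomc) and -0.04 to 0.06 (Mc3r) for NZO/HlLtJ against C57BL/6J, -0.03 to 0.39 (Pomc) for CAST/EiJ against C57BL/6J and -0.33 to 0.09 (Pomc) for NZO/HlLtJ against CAST/EiJ. Mc3r ran from -0.06 to 0.03 for NZO/HlLtJ against C57BL/6J on HFHS, and Mc4r from -0.19 to 0.01 for the diet response of CAST/EiJ against C57BL/6J. Members called ran from 1 to 2 for CAST/EiJ against C57BL/6J and for NZO/HlLtJ against CAST/EiJ on control, from 0 to 2 and from 1 to 2 for these on HFHS, and from 0 to 1 for each of their diet responses.

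Over all genes, calls ran from 7 to 98 around 29 for diet in NZO/HlLtJ and from 7 to 2681 around 24 in CAST/EiJ as libraries were left out, so the adjusted p of a diet value there depends on single libraries. At 57 to 253 counts, depth limits Mc4r most. No paired analysis was possible because the replicate numbers only name libraries within a group and the labels give no shared animal, litter or day.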
